A study of Mus musculus with 10 samples.

Results

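Of the 29955 genes listed in the deposited count table, 8 were chosen and 7 of them are described: Hbb-b1, Gp9, Epor, Gata1, Gata2, Klf1 and Sox6. They are genes of red blood cells and platelets, with the regulators of those lineages, and were chosen because earlier readings of these data had found some of them in a leukaemia of the B lineage, where they are out of place. Their levels in the 5 groups were thus what chose them, and they are given as a description with no test. All 7 had a row in the table. Hbb-b1, Sox6, Gp9 and Klf1, 4 of the 7, passed the filter on low counts, and Epor, Gata1 and Gata2 did not.

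The 10 libraries of RNA came from an acute lymphoblastic leukaemia line of the mouse. Every group carried the p185 form of BCR-ABL1, a fusion kinase that arises from the Philadelphia chromosome. The parental line without treatment gave 2 libraries, named A and B. Lines that grew out under dasatinib, an inhibitor of ABL and SRC family kinases, gave 3 libraries at the dose step 1x of the IC90 and 3 at the step 16x, named A, B and C at each step. Lines carried with the solvent DMSO gave a single library at the 1x step and a single one at the 16x step. The drug-free class below joins the 2 parental and the 2 DMSO libraries. All groups derive from this one line. The labels call the replicates of the dasatinib steps biological and those of the parental line only replicates. They name no separate cultures, so p-values measure the spread between these libraries. Within a group that spread may be technical, above all in the parental pair. In the dasatinib comparisons it also holds the differences between the parental and the DMSO lines, which the fit takes as replicates of the drug-free class. Dasatinib pairs of a step differed by a chi-square per degree of freedom of 3.14 to 16.9 over genes, and the parental pair by 1.91.

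Total counts per library ran from 29049760 to 45813092. Levels are given in CPM, counts scaled to the library's size, and a single count was worth 0.0220 to 0.0341 CPM. A row at 0 counts allows a level of up to 0.0659 to 0.102 CPM, depending on the library, which covers counting error only. The B-lineage markers summed to 2864 to 3391 CPM in every library, so the cells matched their label. A row near 0 is not always a gene that is off: Ebf1, a factor that B-lineage cells depend on, was listed at 0.0955 to 0.717 CPM, Syk at 0.143 to 0.403 and Chd4 at 0 to 0.0490, and these were picked after their values were seen. Low rows are therefore read below as low counts, not as silent genes. In these bulk libraries, fewer cells with a transcript and less of it per cell cannot be told apart.

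Red blood cells are built by a small set of regulators. The GATA factors open the program, GATA2 in progenitors and GATA1 in committed cells. KLF1 then switches on adult beta-globin and membrane genes, and erythropoietin, acting through its receptor EPOR and the kinase JAK2, keeps the cells alive. SOX6, a SoxD factor, acts with BCL11A to silence embryonic globin and favours red cell maturation. The red cell membrane is carried by a lattice of spectrins. Platelets and their parent megakaryocytes share GATA1 with red cells, and Gp9 encodes glycoprotein IX of the GP Ib-IX-V receptor for von Willebrand factor.

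The 250 bases before the transcription start were read for 6 of the 7 genes from RefSeq (GRCm38.p6). They are shown for Gp9 and Sox6, whose levels differed between the groups. Epor and Klf1 are shown too, targets of GATA factors with at most 0.490 CPM in any library. Capitals mark matches, on either strand, to the GATA core GATAA or to the KLF-type motif CCNCNCCC. The windows are chr6:87777820-87778069 (plus strand) for Gp9, chr9:21963577-21963826 (minus strand) for Epor, chr8:84901732-84901981 (plus strand) for Klf1 and chr7:116038745-116038994 (minus strand) for the most upstream of 6 Sox6 starts. Each is written 5′ to 3′ on the strand of the gene.
Gp9: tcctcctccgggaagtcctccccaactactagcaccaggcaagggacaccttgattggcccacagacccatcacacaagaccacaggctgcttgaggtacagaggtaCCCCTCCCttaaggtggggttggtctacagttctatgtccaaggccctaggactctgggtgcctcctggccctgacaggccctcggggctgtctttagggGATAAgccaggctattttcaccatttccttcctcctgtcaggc
Epor: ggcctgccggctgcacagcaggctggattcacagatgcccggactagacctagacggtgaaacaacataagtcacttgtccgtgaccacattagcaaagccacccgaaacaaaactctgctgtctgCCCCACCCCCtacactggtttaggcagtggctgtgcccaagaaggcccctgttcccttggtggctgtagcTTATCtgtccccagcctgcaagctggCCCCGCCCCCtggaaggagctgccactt
Klf1: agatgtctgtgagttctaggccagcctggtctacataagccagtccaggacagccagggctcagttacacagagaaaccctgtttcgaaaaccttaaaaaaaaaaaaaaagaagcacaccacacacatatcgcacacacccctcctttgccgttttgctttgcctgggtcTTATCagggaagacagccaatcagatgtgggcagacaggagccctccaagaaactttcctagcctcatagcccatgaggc
Sox6: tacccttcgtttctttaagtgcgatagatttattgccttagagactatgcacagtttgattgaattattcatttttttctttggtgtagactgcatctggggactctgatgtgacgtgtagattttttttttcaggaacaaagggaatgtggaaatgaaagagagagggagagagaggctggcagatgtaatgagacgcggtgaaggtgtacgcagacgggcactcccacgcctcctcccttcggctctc

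The Gp9 window held a GATAA beginning 43 bases before the start and a KLF-type match at 143 bases. Epor held a GATAA on the opposite strand at 54 bases and 4 KLF-type matches, some of which overlap each other. Klf1 held a GATAA on the opposite strand at 80 bases and no KLF-type match, and the Sox6 window shown held neither. Of the other Sox6 starts, the second held 2 KLF-type matches, the fourth 2 GATAA and 1 KLF-type match and the sixth 1 GATAA, while the third and the fifth held neither. The Gata1 window and both Gata2 windows held KLF-type matches and no GATAA. Such matches are common: 22.6% of all 32851 RefSeq windows of this length held a GATAA and 45.9% a KLF-type match. They are a description of these letters and say nothing about binding.

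Gp9 separated the drug-selected lines from the rest, on few counts. The 2 parental libraries had 4 and 2 counts, DMSO 1x had 1 and DMSO 16x had 0. Counts in dasatinib 1x A, B and C were 21, 34 and 14, or 0.664, 0.855 and 0.353 CPM, and those in dasatinib 16x A, B and C were 49, 26 and 12, or 1.08, 0.637 and 0.286 CPM. Each dasatinib library was above each drug-free one, whose highest value was 0.136 CPM in parental A. Of all 12282 tested genes, 7.21% likewise had all 6 dasatinib libraries above all 4 drug-free ones, and nothing is read from that separation, since these levels chose the gene.

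The means of Gp9 were 0.0529 ± 0.0590 CPM (SD, n = 4) in the drug-free class, 0.624 ± 0.253 (SD, n = 3) at 1x and 0.667 ± 0.396 (SD, n = 3) at 16x. The log2 changes against drug-free were 3.58 ± 0.74 and 3.69 ± 0.73 (SE), resting on 7 drug-free counts. They were 5.97 and 6.08 against the DMSO libraries alone, 2.82 and 2.92 against the parental libraries alone, and 4.43 and 4.54 without parental A. Between the steps the change was 0.10 ± 0.59, and it turned to -0.43 without dasatinib 16x A and to -0.19 without dasatinib 1x C.

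The partners of glycoprotein IX in its receptor were low too, at levels that overlapped the 0.286 to 1.08 CPM of Gp9 in the dasatinib libraries. Gp1ba, which binds von Willebrand factor, lay at 0.143 to 0.654 CPM and Gp5 at 0.126 to 0.545, and Gp1bb had 0 counts in all 10 libraries. Of the 2 that were tested, Gp1ba and Gp5, 0 were called in the 5 comparisons with edgeR and 0 with DESeq2. At an unadjusted p under 0.05, 1 of them passed in dasatinib 16x against 1x and 0 in the others.

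**Figure D1:**
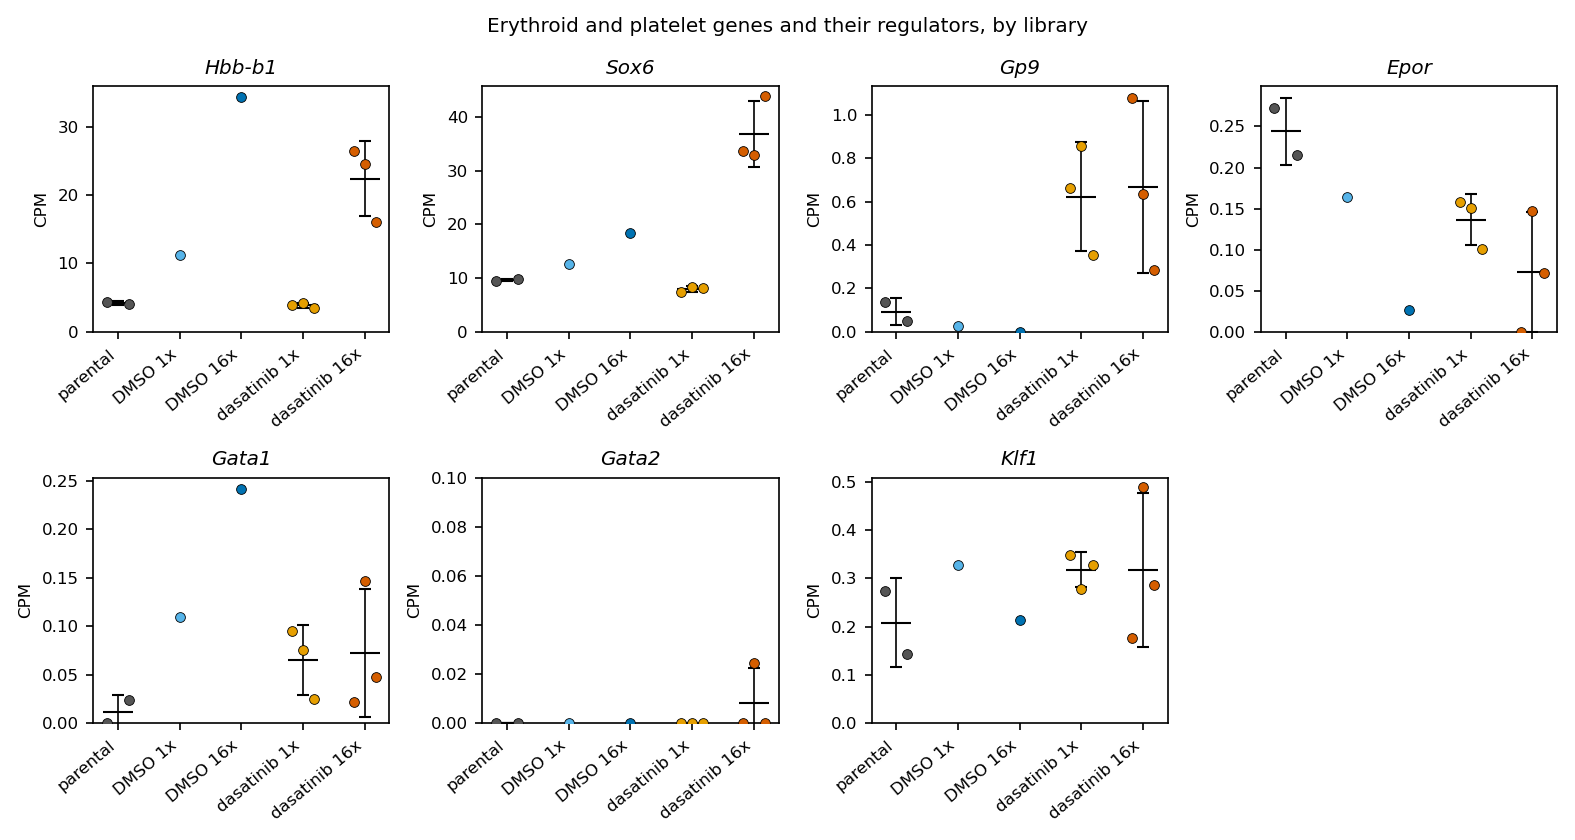
CPM of the 7 genes in each library, by group, with the group mean and SD where a group has more than 1 library (SD bars are drawn down to 0 at most; each panel has its own axis). Gp9 is higher in the 6 dasatinib libraries than in the others but reaches only 1.08 CPM. Hbb-b1 and Sox6 are high in the libraries of the 16x step, and the axes of Epor, Gata1, Gata2 and Klf1 end below 1 CPM.

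Hbb-b1, an adult beta-globin, was high at the 16x step with drug and without it. Parental A and B had 4.40 and 4.04 CPM, DMSO 1x had 11.2 and DMSO 16x had 34.4. Dasatinib 1x A, B and C stood at 3.86, 4.25 and 3.50 CPM, and dasatinib 16x A, B and C at 26.4, 24.6 and 16.1. The highest value was thus in a line that never met the drug, and the dasatinib 1x libraries overlapped the parental ones. All 4 libraries of the 16x step were above the 6 others, as they were for 3.88% of all tested genes.

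Against parental, the mean of Hbb-b1 was 2.65 times as high in DMSO 1x and 8.16 times in DMSO 16x (log2 1.41 ± 0.27 and 3.03 ± 0.26, SE). The dasatinib 16x mean of 22.4 ± 5.49 CPM (SD, n = 3) was 5.78 times the 1x mean of 3.87 ± 0.373 (SD, n = 3). Because the drug-free class spanned 4.04 to 34.4 CPM, the reference set the change of the dasatinib lines. It was -1.80 ± 0.71 at 1x and 0.73 ± 0.65 at 16x against all drug-free libraries, but -0.12 and 2.41 against the parental libraries alone, and -0.76 and 1.77 without DMSO 16x. Hbb-b1 belongs to a family of near-identical copies, and how the authors' counting split such reads is not given in the sources used here.

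The embryonic beta-like globin Hbb-bh1 shares the beta-globin cluster and was not among the genes chosen. Its level was 1.81 and 1.46 CPM in parental A and B, 10.2 in DMSO 1x and 31.0 in DMSO 16x. Its values in dasatinib 1x A, B and C were 0.443, 0.453 and 0.252 CPM, and dasatinib 16x A, B and C had 3.25, 3.97 and 2.60. In contrast to Hbb-b1, every dasatinib 1x library lay below both parental ones. The rise from parental passed the edgeR quasi-likelihood test in DMSO 1x (log2 2.66 ± 0.26, adjusted p = 0.000237) and in DMSO 16x (log2 4.26 ± 0.26, adjusted p = 4.52e-07), each a single library assumed to vary like the other groups. Of all genes, 6.17% were called in the first comparison and 30.9% in the second.

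Against the whole drug-free class, the change of Hbb-bh1 at dasatinib 1x missed the threshold in edgeR (log2 -4.86 ± 1.17, adjusted p = 0.0737, and 0.0459 to 0.256 over the left-out libraries). The change at 16x was -1.77 ± 0.94 (adjusted p = 0.237), and the one between the steps was 3.10 ± 1.16 (adjusted p = 0.232). DESeq2 called the first and the third of these (adjusted p = 5.93e-05 and 0.0491). The reference decided the rest, since the drug-free class ran from 1.46 to 31.0 CPM. Against the parental libraries alone, Hbb-bh1 was lower at dasatinib 1x (log2 -2.08 ± 0.27, adjusted p = 0.00106, edgeR) and higher at 16x (log2 1.01 ± 0.22, adjusted p = 0.00543). Against the DMSO libraries alone it was lower at both steps (log2 -5.54 ± 0.23, adjusted p = 2.16e-08, and -2.44 ± 0.19, adjusted p = 1.72e-06).

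The balance between the embryonic and the adult row differed between drug-selected and drug-free lines, and also between the parental and the DMSO lines. Hbb-bh1 made up 29.1% (95% Wilson interval 23.0 to 36.1) and 26.5% (21.2 to 32.6) of the counts of both rows in parental A and B. Its share was 47.8% (44.3 to 51.3) in DMSO 1x and 47.4% (45.4 to 49.4) in DMSO 16x. In dasatinib 1x A, B and C it was 10.3% (6.23 to 16.5), 9.63% (6.18 to 14.7) and 6.71% (3.69 to 11.9). Dasatinib 16x A, B and C had 11.0% (9.41 to 12.7), 13.9% (12 to 16) and 13.9% (11.6 to 16.5). All 6 dasatinib libraries had a lower share than all 4 drug-free ones, and no interval of the first reached one of the second. Within the drug-free class, the DMSO intervals likewise lay apart from the parental ones. How often other pairs of genes separate the groups in this way was not examined, and Hbb-b1 was chosen on its levels. The share compares counts and is not set per length. The intervals cover counting error only, and the share was looked at after the levels were seen, so it carries no test.

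**Figure D2:**
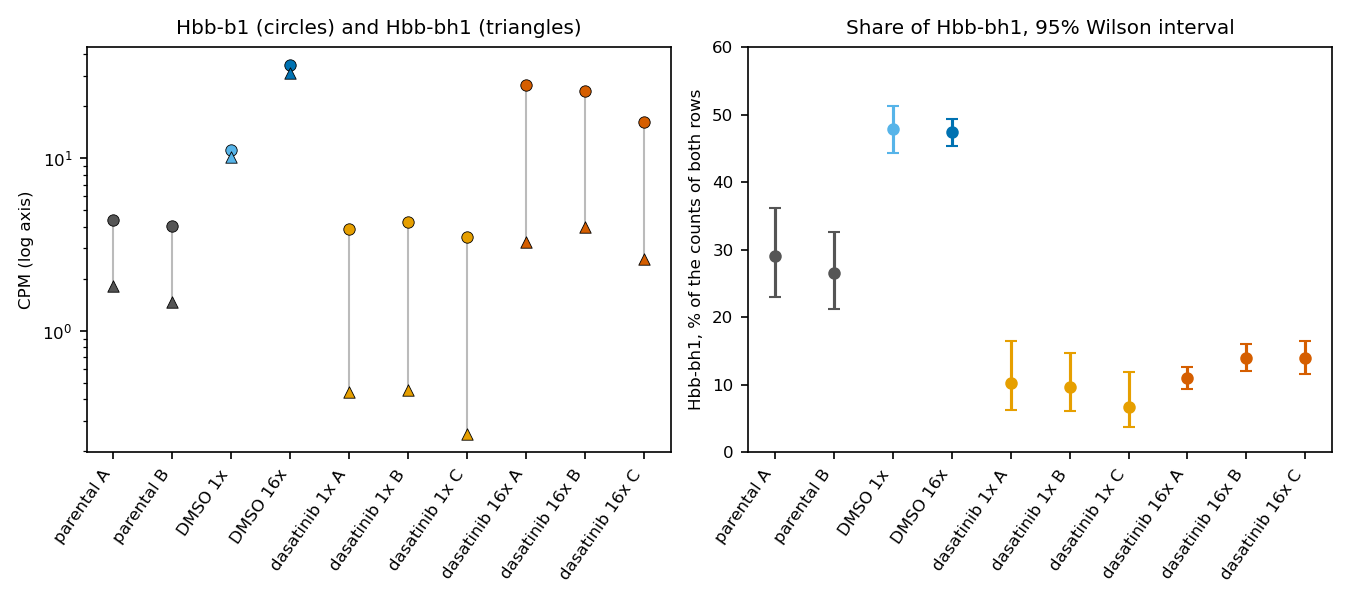
Left, CPM of Hbb-b1 (circles) and Hbb-bh1 (triangles) in each library on a log axis, joined by a line; right, the share of Hbb-bh1 in the counts of both rows, with 95% Wilson intervals. The share is 26.5 to 47.8% in the drug-free libraries and 6.71 to 13.9% in the dasatinib libraries, at both low and high totals.

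The other globin rows held few counts or none. Hba-a2, an alpha-globin, had at most 0.151 CPM, and the embryonic Hbb-y at most 0.0755. Hba-x, Hbq1a, Hbq1b and Mb, the myoglobin gene, had 0 counts in all libraries. Ngb and Cygb, the neuroglobin and cytoglobin genes, reached 0.190 and 0.0268 CPM. Hba-a1, Hbb-b2 and Ahsp, which encodes a chaperone of alpha-globin, were listed too, but no row of their own was matched to them.

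Epor, the receptor, was low in all libraries. It had 8 and 9 counts in parental A and B (0.273 and 0.215 CPM), 6 in DMSO 1x (0.164) and 1 in DMSO 16x (0.0268). Dasatinib 1x A, B and C had 5, 6 and 4 counts (0.158, 0.151 and 0.101 CPM), and dasatinib 16x A, B and C had 0, 6 and 3 (0, 0.147 and 0.0716 CPM). The parental libraries were the 2 highest. No library reached 10 counts, so no change is drawn from them.

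Gata1 had few counts too. Parental A and B had 0 and 1 counts, DMSO 1x had 4 and DMSO 16x had 9, which was its highest level at 0.241 CPM. Dasatinib 1x A, B and C had 3, 3 and 1 counts, and dasatinib 16x A, B and C had 1, 6 and 2, with 0.0220 to 0.147 CPM over these 6 libraries. Gata2 had a single count in all 10 libraries, in dasatinib 16x B (0.0245 CPM). Of the other GATA rows, Gata3, a T-cell factor, had at most 0.270 CPM, Gata4 a maximum of 0.0274, and Gata5 and Gata6 had 0 counts.

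Klf1 was found in each library at a low and even level. Its counts were 8 and 6 in parental A and B, 12 in DMSO 1x and 8 in DMSO 16x, which are 0.273, 0.143, 0.328 and 0.214 CPM. Dasatinib 1x A, B and C had 11, 11 and 13 (0.348, 0.277 and 0.328 CPM), and dasatinib 16x A, B and C had 8, 20 and 12 (0.176, 0.490 and 0.286 CPM). The groups overlapped. The log2 change was 0.41 ± 0.41 at 1x and 0.41 ± 0.40 at 16x (SE) against drug-free, and the latter was -0.04 without dasatinib 16x B.

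Among the other Krüppel-like factors, 12 of 16 were tested. With edgeR, 3 rose at dasatinib 16x against drug-free, Klf2, Klf6 and Klf13, and 2 fell, Klf4 and Klf12 (41.7%, beside 16.1% of all genes). Klf12 had only 0, 0 and 1 counts in dasatinib 16x A, B and C. Klf13, at 129 ± 5.17 CPM (SD, n = 4) drug-free, reached 156 ± 5.10 (SD, n = 3) at 16x (log2 0.27 ± 0.04, adjusted p = 0.00291). Klf4 fell from 1.58 ± 0.423 to 0.451 ± 0.143 CPM (log2 -1.80 ± 0.30, adjusted p = 0.00456). At dasatinib 1x, Klf13 alone was called with edgeR, or 8.33% of the 12 beside 1.96% of all genes (log2 0.22 ± 0.04, adjusted p = 0.0328). Of the 10 left-out libraries, 6 ended that call, with adjusted p up to 0.155.

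Sox6 was found in every library, and the dasatinib steps lay at its ends. Parental A and B had 9.47 and 9.81, DMSO 1x had 12.6 and DMSO 16x had 18.4. Dasatinib 1x A, B and C stood at 7.40, 8.33 and 8.09 CPM, and dasatinib 16x A, B and C at 33.6, 32.9 and 43.9. The 1x libraries were the lowest of all and the 16x libraries the highest, with the 4 drug-free ones between them. Of all tested genes, 11% had the 1x libraries below the drug-free ones, 14.3% had the 16x libraries above them and 15.1% had the 16x libraries above those at 1x. As for Hbb-b1, all 4 libraries of the 16x step were above the 6 others.

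The dasatinib 16x mean of Sox6, 36.8 ± 6.17 CPM (SD, n = 3), was 4.63 times the 1x mean of 7.94 ± 0.479 (SD, n = 3). DMSO 16x stood at 1.91 times the parental mean. In log2, the changes were -0.66 ± 0.23 at 1x and 1.55 ± 0.22 at 16x against drug-free, 2.21 ± 0.24 between the steps, and 0.39 ± 0.17 and 0.93 ± 0.16 for DMSO 1x and 16x against parental (SE). Per kilobase of merged exons the dasatinib 16x mean was 2.48 CPM, since the Sox6 exons cover 14832 bases.

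The other SoxD genes were near 0, with at most 0.0268 CPM for Sox5 and 0.161 for Sox13. Of 4 further SOX rows tested, Sox4, a factor of early lymphoid cells, was called in DMSO 16x against parental, at 42.6 CPM against 108 ± 5.06 (SD, n = 2; log2 -1.34 ± 0.27, adjusted p = 0.0145, edgeR), and the call was lost without parental A (adjusted p = 0.0516). Sox15 rose there from 0.551 ± 0.137 to 2.81 CPM (log2 2.37 ± 0.41, adjusted p = 0.000774, edgeR). These 2 calls were 50% of the 4 rows, beside 30.9% of all genes.

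The levels of the described genes were also compared with each other in log2 CPM, a description over the same 10 libraries. Hbb-b1 and Sox6 went together (Pearson r = 0.857, n = 10), and Hbb-b1 and Gp9 did not (r = -0.103). Sox6 and Gp9 had r = 0.143, and Hbb-bh1 had r = 0.815 with Hbb-b1. These libraries share groups and lineage, so the points are not independent.

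Of the tested genes, with predicted ones left out, those most like Hbb-b1 were Ccbp2 (r = 0.985), the integrin gene Itga6 (0.983) and the lymphocyte receptor gene Btla (0.979). Itga6 had 36.3 CPM in the parental mean, 80.0 in DMSO 16x and 70.9 at dasatinib 16x. For Sox6 the nearest were Tbc1d16 (0.973), Dmpk (0.973) and B4galnt1 (0.972). Tbc1d16 had 8.95 CPM in the parental mean, 24.6 in DMSO 16x, 7.68 at dasatinib 1x and 46.8 at 16x.

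Genes beside the chosen ones on the chromosome were looked at in the reference gene order. Of the 24 neighbours of 6 genes, 10 had a row in the table and 4 of these stayed under 1 CPM in all libraries. Beside Gp9, Rab43 lay at 32.0 to 58.5 CPM and Isy1 at 82.4 to 98.8, and the Klf1 neighbour Gcdh had 21.5 to 27.2. Eefsec, near Gata2, lay at 44.6 to 55.5 CPM. These neighbours were not all level: in DMSO 16x against parental, the log2 change was -0.78 for Rab43. It was 0.20 for Isy1, 0.28 for Eefsec and 0.17 for Gcdh, with DMSO 16x a single library.

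Partner genes of the same programs were counted in lists written from general knowledge with earlier results of these data known. Together they held 229 rows, of which 29 had 0 counts everywhere and 151 were tested. With edgeR, 4 rose and 5 fell at dasatinib 1x against drug-free (5.96%, beside 1.96% of all genes, 0.822% higher and 1.14% lower). This total of 9 became 1 to 4 without DMSO 1x or any dasatinib 1x library and 15 without DMSO 16x. At 16x against drug-free, 22 rose and 20 fell (27.8%, beside 16.1% of all genes, 7.79% higher and 8.33% lower). Between the steps 6 rose and 3 fell (5.96%, beside 2.13%, 1.21% higher and 0.928% lower), a total of 3 to 5 without any dasatinib 1x library or dasatinib 16x C and of 22 without DMSO 16x. DMSO 1x against parental gave 16 higher and 3 lower (12.6%, beside 6.17%, 3.31% higher and 2.87% lower), a total of 7 or 8 without a parental library, and DMSO 16x gave 36 and 27 (41.7%, beside 30.9%, 14.7% higher and 16.2% lower). The median change of the partners was 0.01, 0.03, 0.00, 0.05 and 0.04 in that order, and nothing particular to the lists is drawn from these shares.

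Spna2, the alpha-spectrin of most non-erythroid cells, lay at 168 to 213 CPM in all libraries, and its beta partner Spnb2 at 114 to 199. Spnb1, the erythroid beta-spectrin, lay between 0.0477 and 0.204 CPM and was too low to be tested. Of the 4 tested rows of this list, Spna2, Spnb2, Spnb3 and Spnb4, 0 were called in any of the 5 comparisons with edgeR. At an unadjusted p under 0.05, 2 of the 4 passed at dasatinib 1x against drug-free, where DESeq2 called 1. A further 1 passed in dasatinib 16x against 1x and 1 in DMSO 1x against parental, and 0 in the other 2. Outside the first comparison DESeq2 called 0.

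Of 14 tested genes of the erythroid membrane and its skeleton, 0 rose and 2 fell at dasatinib 16x against drug-free (14.3%, beside 16.1% of all genes). Epb4.1, the protein that ties spectrin to actin, fell from 157 ± 3.74 (SD, n = 4) to 123 ± 10.7 CPM (SD, n = 3; log2 -0.35 ± 0.06, adjusted p = 0.00484). Xk, a membrane protein of the Kell complex, was at 0.920 ± 0.289 CPM in parental (SD, n = 2), 5.75 in DMSO 1x and 14.9 in DMSO 16x, and had at most 0.0949 in any dasatinib library. It rose in DMSO 16x (log2 3.99 ± 0.34, adjusted p = 4.46e-06) and fell at dasatinib 16x (log2 -6.82 ± 1.36, adjusted p = 0.0116), a call lost without dasatinib 16x C (adjusted p = 0.0509). The 16x change was -5.67 without DMSO 16x and -7.68 without dasatinib 16x A. The Xk call at dasatinib 1x (log2 -6.40, adjusted p = 0.0487; -5.25 without DMSO 16x) was lost without any 1 of 7 libraries, with adjusted p up to 0.204. In DMSO 16x, 6 genes of this list rose and 5 fell (78.6%, beside 30.9% of all genes). Gypc, which encodes glycophorin C, was among the lower ones (log2 -0.62 ± 0.06, adjusted p = 1.47e-05, edgeR).

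Between the dasatinib steps, 0 of the 14 membrane genes were called by edgeR (beside 2.13% of all genes) and 0 by DESeq2, and 2 had an unadjusted p under 0.05.

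Haem synthesis and iron handling had 21 tested genes, of which 5 rose and 2 fell at dasatinib 16x (33.3%, beside 16.1% of all genes). Hmox1, the haem-degrading oxygenase, was at 3.01 ± 0.332 CPM drug-free (SD, n = 4), 7.72 ± 0.545 at 1x and 11.8 ± 1.20 at 16x (SD, n = 3). Its log2 changes were 1.36 ± 0.12 (adjusted p = 0.00253) and 1.97 ± 0.12 (adjusted p = 0.000201), and both calls held without each library. Tfrc, the transferrin receptor, fell at 16x (log2 -0.49 ± 0.04, adjusted p = 0.000247), and Ftl1, the ferritin light chain, whose near-identical copies may share its reads, rose (log2 1.00 ± 0.11, adjusted p = 0.000779). Alas2, the enzyme that commits red cells to haem synthesis, lay at 0.453 to 0.858 CPM and was not called. In DMSO 1x against parental, 0 of the 21 were called by edgeR (beside 6.17% of all genes) and 0 by DESeq2, with 1 at an unadjusted p under 0.05.

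Of 27 tested erythroid and megakaryocytic transcription factors, Gfi1b rose and 5 fell at dasatinib 16x (22.2%, beside 16.1% of all genes). Gfi1b, a repressor that red cells and megakaryocytes need, went from 51.8 ± 1.18 CPM (SD, n = 4) to 60.1 ± 2.21 (SD, n = 3; log2 0.22 ± 0.04, adjusted p = 0.00483). At 1x it was called too (log2 0.30 ± 0.04, adjusted p = 0.00707) but not without dasatinib 1x B (adjusted p = 0.0527). Runx1 fell at 16x (log2 -0.28 ± 0.04, adjusted p = 0.00182). In DMSO 16x the list split into 8 higher and 7 lower (55.6%, beside 30.9% of all genes). Among them, Ikzf1 was higher (log2 0.86 ± 0.06, adjusted p = 1.14e-06, edgeR) and Mafk, a partner of NFE2, lower (log2 -0.77 ± 0.06, adjusted p = 3.12e-06).

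The list of globin switching genes and SOX6 partners had 24 tested members, with 2 higher and 5 lower at dasatinib 16x (29.2%, beside 16.1% of all genes). Bcl11a, the repressor that acts with SOX6 on embryonic globin, stood at 162 ± 5.04 CPM drug-free (SD, n = 4), 135 ± 3.00 at 1x and 132 ± 5.46 at 16x (SD, n = 3). Its fall was called at 16x (log2 -0.29 ± 0.04, adjusted p = 0.00179) and at 1x (log2 -0.27 ± 0.04, adjusted p = 0.0135), and the 1x call was lost without dasatinib 1x A, B or C (adjusted p = 0.0861, 0.0728 and 0.0601). Mta3, of the NuRD complex, rose in DMSO 16x from 0.766 ± 0.170 to 8.77 CPM (log2 3.53 ± 0.39, adjusted p = 2.78e-05). It had at most 0.167 CPM in the dasatinib libraries. Dnmt1 fell at 16x (log2 -0.22 ± 0.03, adjusted p = 0.00185).

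Downstream of the erythropoietin receptor, 30 genes were tested, most of them shared with other cytokine receptors. At dasatinib 16x against drug-free, 8 rose and 3 fell (36.7%, beside 16.1% of all genes). With edgeR, 0 were called at 1x (beside 1.96% of all genes), where 13 had an unadjusted p under 0.05 and DESeq2 called 4. Csf2rb2, a beta chain of cytokine receptors, rose from 18.8 ± 1.67 CPM (SD, n = 4) to 39.3 ± 2.62 (SD, n = 3; log2 1.06 ± 0.09, adjusted p = 0.000234). Cish and Socs1, feedback inhibitors induced by JAK-STAT signalling, rose by log2 0.84 ± 0.08 (adjusted p = 0.000473) and 0.73 ± 0.07 (adjusted p = 0.000287). These 3 calls held without each library. Socs3 rose instead in DMSO 16x (log2 1.31 ± 0.10, adjusted p = 1.79e-06). Epor itself had between 0 and 6 counts in the dasatinib libraries.

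Of 18 tested platelet and megakaryocyte genes, 3 rose and 2 fell at dasatinib 16x (27.8%, beside 16.1% of all genes). Plek, which encodes pleckstrin of platelets and leukocytes, was at 30.3 ± 5.43 CPM drug-free (SD, n = 4) and 31.8 ± 1.99 at 1x (SD, n = 3), then at 119 ± 30.9 at 16x (SD, n = 3; log2 1.97 ± 0.18, adjusted p = 0.000334). Tbxa2r, the thromboxane receptor, fell at 16x from 8.40 ± 0.468 to 2.05 ± 1.21 CPM (log2 -2.03 ± 0.32, adjusted p = 0.00405). Ptgs1, the platelet cyclooxygenase, rose in DMSO 16x (log2 1.16 ± 0.07, adjusted p = 1.74e-06). At dasatinib 1x, 0 were called by edgeR (beside 1.96% of all genes), DESeq2 called 1, and 2 had an unadjusted p under 0.05.

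**Figure D3:**
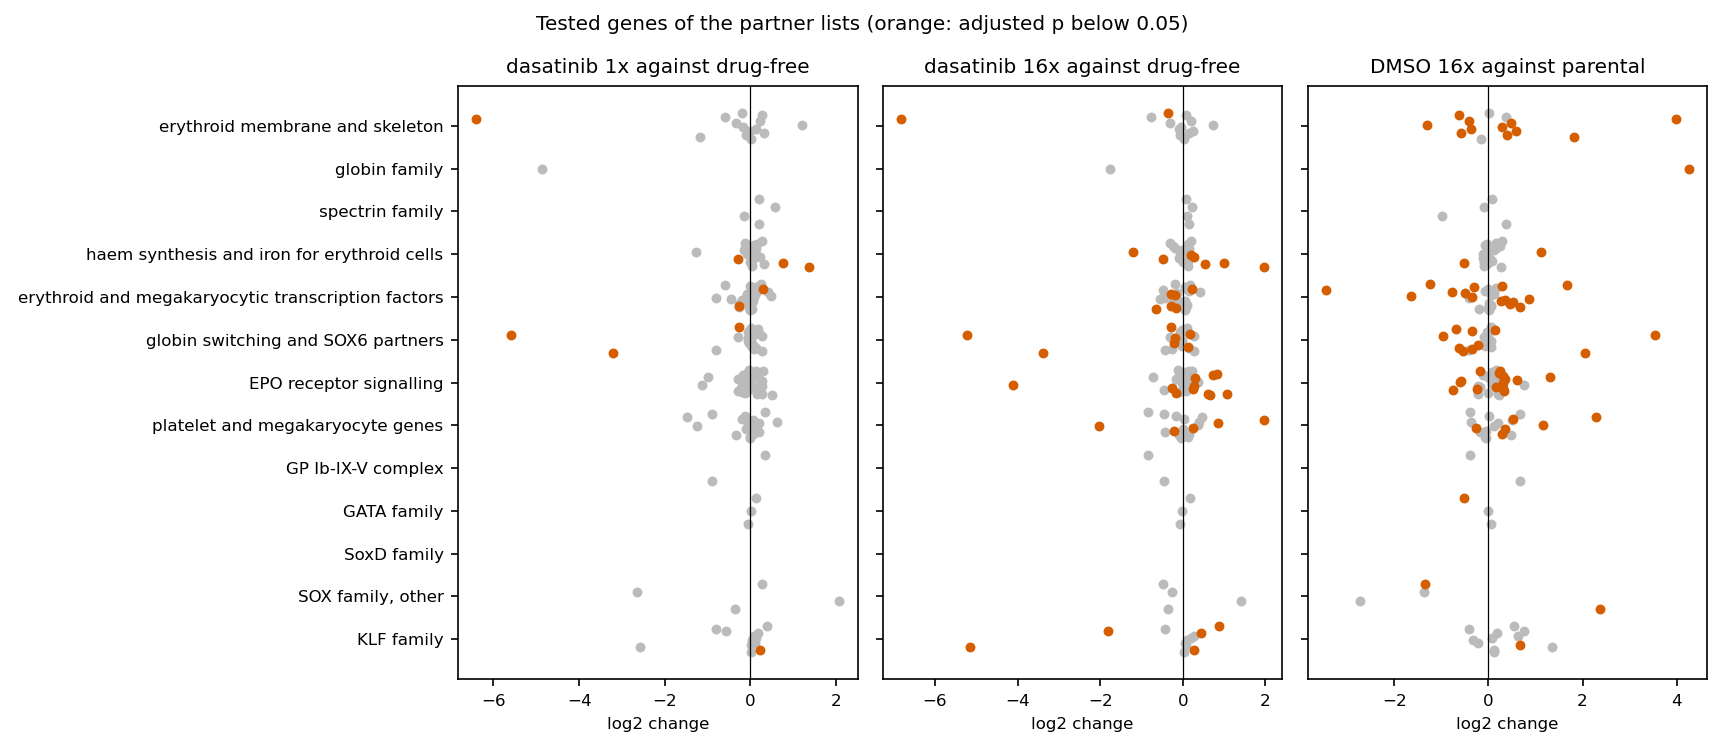
Log2 change of each tested partner gene by list (rows) in 3 comparisons (panels, each with its own axis), with genes of adjusted p below 0.05 in orange; a gene may stand in more than 1 list, and no SoxD gene was tested. Called genes lie on both sides of 0 in most lists, with 9, 42 and 63 called partners from left to right.

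Defining markers of the 2 lineages were set beside these levels. The 10 erythroid markers with a row, Slc4a1 and Alas2 among them, all stayed under 1 CPM, Kel and Tspo2 had 0 counts everywhere, and their sum was 0.901 to 1.66 CPM. The highest sum was in DMSO 16x, and the dasatinib libraries had 0.901 to 1.23 CPM. Slc4a1, the anion exchanger of the red cell membrane, had at most 0.0252 CPM.

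Of 13 megakaryocyte and platelet markers, 12 stayed under 1 CPM and 5 had 0 counts in all libraries, including Ppbp, Vwf and Tubb1. Pf4 had at most 0.0547 CPM. The sum was 3.83 to 4.43 CPM in parental, 8.26 in DMSO 1x, 15.8 in DMSO 16x, 2.87 to 4.53 at dasatinib 1x and 7.49 to 14.4 at 16x. This course came from Itgb3, the integrin beta chain of platelets and other cells, with 2.70 to 3.17 CPM in parental, 14.3 in DMSO 16x and 6.70 to 13.4 at dasatinib 16x. At dasatinib 1x Itgb3 had 1.90 to 3.17 CPM.

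Markers of mast cells, basophils and eosinophils, which also use GATA factors, summed to 0.334 to 1.06 CPM, with 8 of 12 at 0 counts. Myeloid markers summed to 3.92 to 8.62 CPM, mostly from Lyz2 at 3.09 to 7.80, with 10 of 11 under 1 CPM. T-lineage markers summed to 30.2 to 44.7 CPM. Nearly all of that came from Lck at 17.2 to 27.3 CPM and Zap70 at 8.74 to 21.9, and 7 of 9 stayed under 1 CPM. Stem and progenitor markers summed to 1.18 to 10.4 CPM, with the highest values at dasatinib 16x. That rise came from Ly6a, which encodes the surface antigen Sca-1 of stem cells and activated lymphocytes and was picked after its values were seen. It had 10.2, 3.33 and 7.68 CPM in dasatinib 16x A, B and C and 0.755 to 1.46 in the other libraries (log2 2.54 ± 0.35 against drug-free, adjusted p = 0.00208, edgeR). Kit, Cd34, Hoxa9, Meis1 and Mecom, further markers of this list, had at most 0.101 CPM. The part of these cells in the levels of Sox6 and Hbb-b1 was not tested.

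**Figure D4:**
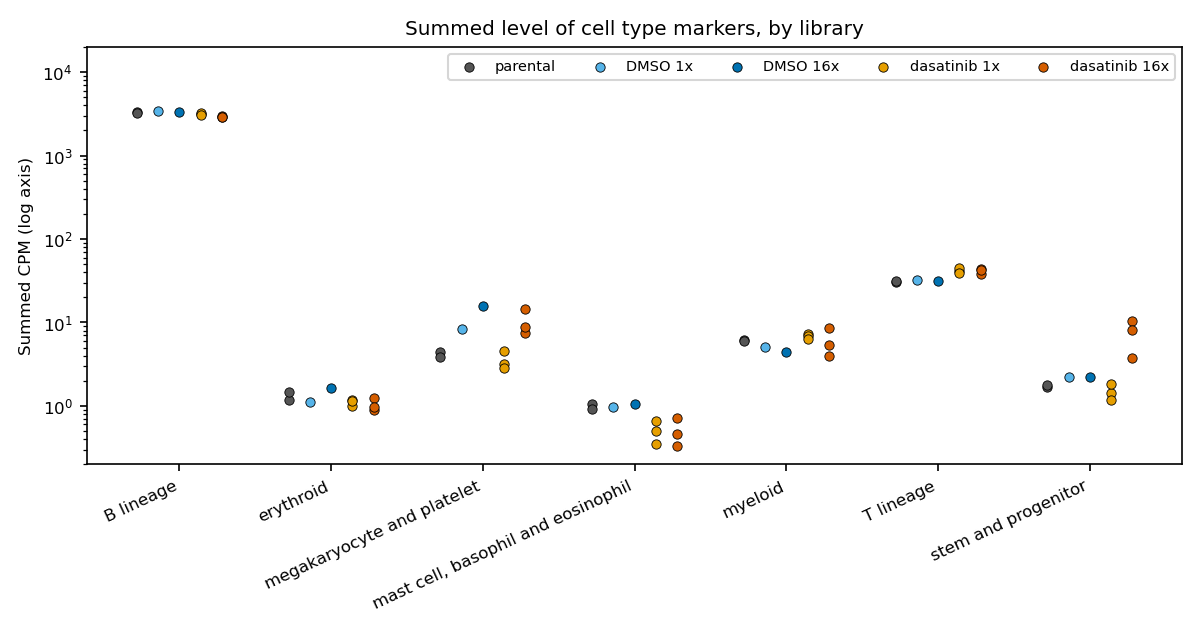
Summed CPM of each list of cell type markers in every library, on a log axis, coloured by group. The B-lineage sum is 2864 to 3391 CPM in all libraries, the erythroid sum stays at 0.901 to 1.66, and the megakaryocyte and platelet sum is highest in DMSO 16x at 15.8.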

How the data were processed

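The gene counts were deposited by the authors as 1 table of whole-number counts per gene and library. Per the submitters' processing notes, CASAVA 1.7.0, Trimmomatic 0.33, TopHat2 2.0.12, BWA 0.7.10, SAMtools, HTSeq 0.6.1 and DESeq were used with mm9; whether counting used strand is not given in the sources used here, and antisense or overlapping genes cannot be told apart.

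The genes and all lists were chosen with earlier results of these data known. Of the 8 chosen genes, 1 is not reported here. In edgeR 4.0.16 (R 4.3.3), 12282 of 29955 genes passed filterByExpr (minimum count 10) and held 99.9606 to 99.9797% of counts. CPM used TMM-effective library sizes, and log2 CPM a prior count of 2. The robust quasi-likelihood test, adjusted by Benjamini and Hochberg over all tested genes at 0.05, used 3 classes for the dasatinib comparisons (biological coefficient of variation 15.3%, 7 residual degrees of freedom) and 5 groups for the DMSO comparisons (7.27%, 5). An SE is the log2 change over the square root of its F. The dasatinib comparisons against drug-free share their reference libraries. All replicate pairs differed by more than sampling noise. The procedure was also run on simulated data. For the dasatinib comparisons these held no differences between the parental and DMSO lines, so that run does not cover the spread of the real drug-free class.

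Named besides the 7 were, per list and comparison, up to 3 called genes with the smallest p, of which the text gives a selection, their families, the 3 tested genes most correlated over the 10 libraries, and 2 genes on each side in the reference order. Genes with a predicted, clone or accession name were left out of that correlation. Exon lengths came from GENCODE vM21, and promoters and gene order from RefSeq GRCm38.p6, while the counts used mm9, so promoters were matched by symbol alone. Alternatives were RLE scaling, no filter, DESeq2 1.42.0, a replicate block, parental or DMSO libraries alone as reference, and each library left out.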

Additional observations from a re-analysis of the deposited data

Results flagged for a closer look

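Of the 56 genes checked, which are those described and the tested genes named above, 17 had every dasatinib 1x library on one side of both parental libraries and both DMSO libraries on the other. At dasatinib 16x 12 genes did so, and 11 had dasatinib lines and DMSO lines moving in opposite directions from the 1x to the 16x step. Of all tested genes, 13.8%, 12.1% and 10.2% showed these patterns. Many of the checked genes were named for their levels, their calls in these comparisons or their correlation with the described genes. A higher share among them is thus built in, and nothing is read from it. The differences between drug and vehicle were not tested, and each DMSO line is a single library.

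Sox6 at dasatinib 1x was 0.824 times the parental mean, while the mean of the DMSO lines was 1.61 times it. Gp9 was 6.78 times the parental mean at dasatinib 1x and 7.24 times at 16x, against 0.149 times in the DMSO lines. These ratios rest on 4 and 2 parental counts and on 1 and 0 in the DMSO lines, and they were 4.58 and 4.89 against parental A alone and 13.1 and 13.9 against parental B alone. Hbb-bh1 was 0.234 times the parental mean at dasatinib 1x and 12.6 times in the DMSO lines.

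Other genes were lower than parental in dasatinib lines and higher in DMSO lines. At dasatinib 1x and 16x, Xk was 0.0709 and 0.0494 times the parental mean (11.2 in the DMSO lines), Mta3 0.0989 and 0.124 (8.46), Klf12 0.251 and 0.0329 (2.23) and Tbxa2r 0.435 and 0.254 (1.07). The ratios of Xk, Mta3 and Klf12 rest on at most 4, 7 and 4 counts in any dasatinib library. Klf12 had only 10 and 6 counts in parental A and B. Socs3 was 0.752 and 0.894 times it (1.97 in the DMSO lines), Ikzf1 0.931 and 0.873 (1.57) and Epb4.1 0.884 and 0.796 (1.03). The pattern held at 1x alone for Btla at 0.828 times (2.29), Tbc1d16 at 0.858 (2.23) and B4galnt1 at 0.961 (1.11). It held at 16x alone for Klf4 at 0.356 times (1.49) and Runx1 at 0.848 (1.06).

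The opposite pattern, higher in dasatinib and lower in DMSO lines, was found for Ftl1 at 1.54 and 1.82 times the parental mean (0.828 in the DMSO lines) and Mafk at 1.14 and 1.13 (0.7). At 1x alone it was found for Spnb2 at 1.42 times (0.91) and Gypc at 1.06 (0.755).

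From the 1x to the 16x step, Ly6a was 6.38 times as high in the dasatinib lines and 0.837 times in the DMSO lines, Socs1 1.88 and 0.972, Csf2rb2 1.75 and 0.815, Ftl1 1.19 and 0.737 and Klf6 1.18 and 0.94. Ratios below 1 in the dasatinib lines were those of Klf12 (0.131, with 1.2 in the DMSO lines), Klf4 (0.421 and 1.31), Spnb2 (0.785 and 1.06), Tfrc (0.871 and 1.09), Runx1 (0.875 and 1.04) and Dnmt1 (0.885 and 1.03). The dasatinib ratio of Klf12 rests on 1, 4 and 2 counts in 1x A, B and C and on 0, 0 and 1 in 16x A, B and C.

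In the drug-free class of 4 libraries, 55 genes were checked for a library standing apart (critical ratio 0.829), which chance gives in about 1 of 20 groups. Dmpk alone was found, with 12.8 CPM in DMSO 16x against 7.8, 8.18 and 8.24 in the other libraries (ratio 0.913). Groups of 3 were not checked.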

How the results depend on the processing

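RLE scaling and no filter kept the counts of called genes within 1.5 times in all 5 comparisons. At dasatinib 1x against drug-free, 241 genes were called (9 partners). The count was 54 (3) with a replicate block, 708 (21) against the parental and 4149 (72) against the DMSO libraries alone, and 853 (23) with DESeq2. At 16x against drug-free, 1980 genes (42 partners) became 3252 (72) and 4518 (84) with those references. For 16x against 1x, 262 genes (9 partners) became 408 (16) with the replicate block and 805 (20) with DESeq2.

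Leaving out 1 library gave 17 to 527 genes (1 to 15 partners) at dasatinib 1x, lowest without dasatinib 1x B and highest without DMSO 16x. It gave 1005 to 2788 (33 to 60) at 16x, lowest for genes without dasatinib 16x C and highest without DMSO 16x. Between the steps it gave 45 to 976 (3 to 22), lowest for genes without dasatinib 1x C and highest without DMSO 16x. For DMSO 1x against parental it gave 118 to 1355 (7 to 27), lowest without parental B and highest for genes without dasatinib 16x A. For DMSO 16x against parental it gave 2597 to 4420 (45 to 76).

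The replicate letters did not pair the samples: deviations of same-letter libraries correlated at 0.0647, 0.0273 and 0.0517, although each library correlated best with its own letter. With the block, libraries without a letter form a level of their own, and Hbb-b1 changed by 0.03 at 1x and 2.53 at 16x, near its values against parental. Hbb-bh1 then changed by -1.92 at 1x (adjusted p = 0.276), by 1.18 at 16x (0.199), which turns its sign, and by 3.10 ± 0.50 between the steps (adjusted p = 0.0307), which passes the threshold. Of 71 results for named partners, 47 kept their call in all alternatives, 95 of 980 values lost it and 0 reversed. Of 280 log2 changes of the tested genes among the 7 under alternatives, 10 moved beyond their spread and 12 changed sign. Counts of Gp9 in the drug-free libraries, and of Epor, Gata1 and Gata2 in all, limit what depth can show.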
